A study of Homo sapiens with 2 samples.

Results

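The spliceosome core protein genes are the 37 protein-coding genes of GENCODE 44 whose symbol starts with SNRP, SF3A, SF3B, PRPF or U2AF, of 20046 protein-coding genes in all. They were chosen by symbol, without any measured value. IGF2BP3 binding was mapped by LACE-seq, in which RNA bound to the protein is fixed by UV light and pulled down, and libraries are made from the cDNA ends where reverse transcription stops. The cells were OE-19, an established human cell line of a gastric cardia adenocarcinoma, which the study uses for cancers of the esophagogastric junction. The samples were replicates 1 and 2 of a single group, for which the labels give no treatment, and no control library was analysed here. Each replicate gave 1 list of peaks on hg38. Every peak sharing at least 1 bp with an exon of a member gene was taken, which kept 53 of the 21142 peaks called in replicate 1 and 47 of the 20799 called in replicate 2.

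The spliceosome removes introns and is built from small nuclear ribonucleoproteins (snRNPs), each an RNA with bound proteins. The Sm proteins form a ring around the RNA of U1, U2, U4 and U5. U1 recognises the 5′ splice site, U2AF reads the 3′ splice site, and U2, with its SF3A and SF3B complexes, settles on the branch point. The U4/U6.U5 tri-snRNP then joins, and PRPF8 of U5 cradles the catalytic centre. The peaks described here were placed on the exons of the genes that code for these proteins, and not on the genes of the small nuclear RNAs. The study treats IGF2BP3 as a reader of N6-methyladenosine (m6A), a methyl mark on mRNA.

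A site was counted as overlapping where peaks of both replicates shared at least 1 bp. Fold enrichment, as the authors' peak caller gave it, compares the reads at the highest point (summit) of a peak with the local background. The deposited values equal the reads plus 1 over the background plus 1, which lowers the fold most where the background is under a few reads. Coding sequence is shown here for overlapping sites that ranked highest by the lower fold enrichment of their 2 replicates, on the strand of the gene, with DNA letters from hg38. Capitals mark each GGAC, the core of the m6A motif that the study relates to binding. U2AF1 is shown because its sequence has a second copy in the genome, and SNRPD1 because its stretch is a short repeat.

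SF3A3, chr1:37969630-37969735, minus strand, exon 13 of 17: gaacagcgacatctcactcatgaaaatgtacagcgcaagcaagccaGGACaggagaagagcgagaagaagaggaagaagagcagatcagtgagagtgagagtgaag

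SF3B5, chr6:144095378-144095497, minus strand, exon 1 of 1: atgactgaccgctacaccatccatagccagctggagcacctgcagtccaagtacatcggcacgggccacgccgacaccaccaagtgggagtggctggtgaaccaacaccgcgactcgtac

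SF3B1, chr2:197392320-197392439, minus strand, exon 25 of 25: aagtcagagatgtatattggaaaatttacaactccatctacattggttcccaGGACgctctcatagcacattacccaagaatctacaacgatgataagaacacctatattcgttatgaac

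PRPF19, chr11:60891169-60891263, minus strand, exon 16 of 16: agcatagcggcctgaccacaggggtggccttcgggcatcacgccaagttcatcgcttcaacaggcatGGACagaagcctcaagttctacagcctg

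PRPF4B, chr6:4040772-4040855, plus strand, exon 4 of 15: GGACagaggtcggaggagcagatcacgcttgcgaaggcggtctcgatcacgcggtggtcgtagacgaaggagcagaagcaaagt

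U2AF1, chr21:43094685-43094788, minus strand, exon 6 of 8: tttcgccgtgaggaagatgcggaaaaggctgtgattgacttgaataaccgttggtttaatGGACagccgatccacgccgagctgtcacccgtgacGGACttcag

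SNRPD1, chr18:21629062-21629112, plus strand, exon 4 of 4: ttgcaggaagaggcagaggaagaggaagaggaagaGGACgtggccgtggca

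Each stretch was limited to coding sequence, to a single exon and to at most 120 nt near the summit of replicate 1. Only the SF3B1 and PRPF19 stretches contain that summit. For PRPF4B, U2AF1 and SNRPD1, no GGAC lay within 50 nt of the summit in either replicate. The SF3A3, SF3B1, PRPF19, PRPF4B and SNRPD1 stretches hold 1 GGAC each and that of U2AF1 holds 2, whereas the SF3B5 stretch holds 0. The whole SF3B5 peaks, which are longer than the stretch, hold 3 GGAC in replicate 1 and 4 in replicate 2. In the PRPF19 stretch, and in 1 of the 2 matches of U2AF1, the motif is preceded by T and so forms the longer TGGAC. The SNRPD1 stretch carries a repeated GGAAGA pattern. Of the stretches taken in the same way but not printed, those of SNRPA1, PRPF3, SNRPB2 and PRPF8 hold 0 GGAC. Those of SF3B4 and SF3A2 hold 1 each. How often member sites hold GGAC is therefore not read from the printed stretches, and the shares for summit windows are given further on.

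Of the 37 genes, 20 had an exonic peak in both replicates (54.1%, Wilson 95% confidence interval 38.4 to 69.0), beside 31.6% of all protein-coding genes. In replicate 1, 26 members had a peak (70.3%, interval 54.2 to 82.5), beside 37.3% of all protein-coding genes. In replicate 2 the number was 25 (67.6%, interval 51.5 to 80.4), beside 39.0%. A peak was called in replicate 1 alone in 6 members and in replicate 2 alone in 5, and 6 members had none. A peak in at least 1 replicate was thus found in 31 members (83.8%, interval 68.9 to 92.3), beside 44.7% of all protein-coding genes. An overlapping pair of peaks lay in 19 members (51.4%, interval 35.9 to 66.6), beside 28.0% of all protein-coding genes. A gene with little RNA in the cell can give no peak, and the part of RNA abundance in these counts was not tested. The exons of a member covered a median of 3914 nt, against 4416 nt over all protein-coding genes. There were 0.280 and 0.248 peaks per kb of exon in the members (0.264 ± 0.0224, SD, n = 2) and 0.167 and 0.170 over all protein-coding genes (0.169 ± 0.00211, SD, n = 2). Wilson intervals here and below cover counting error only. Over all protein-coding genes, a peak was counted once for each gene it touched in peaks per kb, in shares of peaks and in medians of fold, exons and introns. This gave 18681 and 19014 pairs of peak and gene, from 17650 and 17803 exonic peaks. Medians of reads and of plain ratios counted each peak once.

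**Figure D1:**
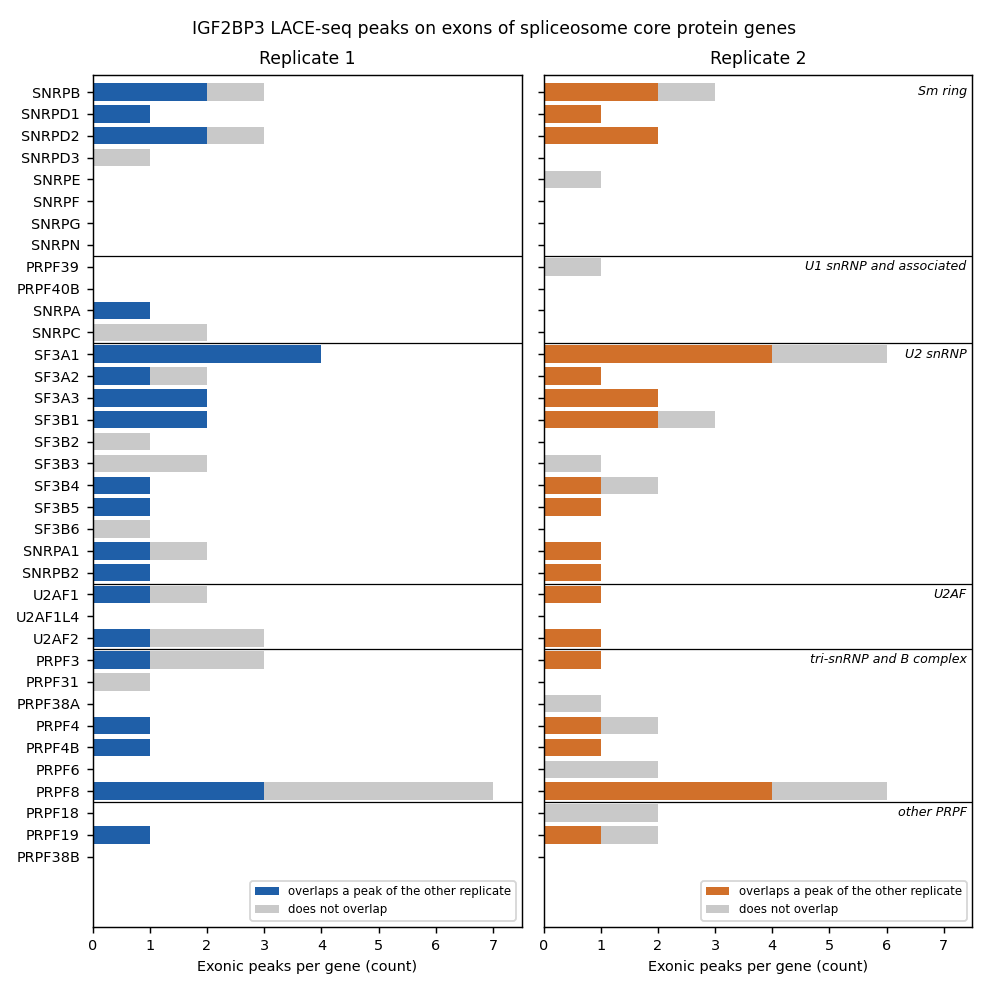
Number of exonic peaks (x axis, count) of 36 of the 37 genes, grouped by role, in replicate 1 (left) and replicate 2 (right). The coloured part of a bar counts peaks that overlap a peak of the other replicate and the grey part the others. PRPF8 has the longest bar in replicate 1 (7 peaks) and shares it with SF3A1 in replicate 2 (6 each), and 6 genes have no bar in either replicate.

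The depth of the libraries is unknown, since the lists give no read totals, but the number of reads stacked at a summit was worked back from its fold enrichment and p-value. The member peaks had a median of 25 reads in replicate 1 (range 7 to 77) and 20 reads in replicate 2 (range 7 to 53). Over all exonic peaks of protein-coding genes the medians were 24 and 23 reads. The median fold enrichment of the member peaks was 7.09 and 7.25 (7.17 ± 0.110, SD, n = 2), against 6.84 and 7.13 (6.98 ± 0.201, SD, n = 2) over all protein-coding genes. As a plain ratio of reads to background, with nothing added, the medians were 10.9 and 13.6 in the members and 10.5 and 11.7 over all exonic peaks of protein-coding genes.

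The genes of the U2 proteins, the largest group with 11 genes, held 19 peaks in replicate 1 and 18 in replicate 2. Per kb of exon they had 0.343 and 0.325 peaks, close to the 0.316 in each replicate of the tri-snRNP and B complex genes. Per gene they had 1.73 and 1.64 peaks, below the 1.86 of that group. All 11 genes of this group had a peak in at least 1 replicate, 9 had peaks in both, and 8 had an overlapping pair. The shares over all protein-coding genes were 44.7%, 31.6% and 28.0%. SF3A3, a subunit of the SF3A complex, had the overlapping site with the highest mean fold enrichment, though in replicate 1 alone the U2AF1 peak described further on was higher. The SF3A3 peaks, chr1:37969630-37969962 in replicate 1 and chr1:37969630-37969954 in replicate 2, cover the start of coding exon 13 and the intron before it, and the printed stretch is the exonic part. The fold enrichment was 15.5 in replicate 1 and 14.6 in replicate 2 (15.1 ± 0.623, SD, n = 2), with 30 and 27 reads at the summit. A second SF3A3 pair, in the 3′ UTR, was lower in replicate 2 (5.31) than in replicate 1 (7.33).

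SF3B5, the smallest SF3B subunit, is encoded by a single exon of 690 nt. Its only peak in each replicate spanned the whole coding sequence with both the start and the stop codon (chr6:144095078-144095768 in replicate 1). The fold enrichment was 12.0 and 11.2 (11.6 ± 0.600, SD, n = 2), with 23 and 22 reads at the summit. SF3B1, which contacts the branch point and is the largest subunit of SF3B, had a pair over its stop codon in the last exon. These peaks (chr2:197392171-197392650 in replicate 1) reached 10.9 and 9.90 in fold enrichment (10.4 ± 0.739, SD, n = 2). The reads at the summit differed more than the fold, with 51 in replicate 1 and 22 in replicate 2. As a plain ratio to the background the order was turned, with 13.6 in replicate 1 and 16.6 in replicate 2. A second SF3B1 pair lay at exon 7 of 25, with fold enrichments of 7.18 and 8.28, and replicate 2 had a further peak at exons 13 and 14 (5.44).

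SF3A1, another SF3A subunit, had 4 peaks in replicate 1, all overlapping, and 6 in replicate 2. The pair at the first exon had the largest difference between replicates of the 4, with a fold enrichment of 7.57 in replicate 1 and 12.1 in replicate 2 (9.86 ± 3.24, SD, n = 2). This pair also covers an exon of CCDC157. Without strand in the peak lists, reads from SF3A1 and from CCDC157 cannot be told apart. The other 3 pairs lay at exon 4 (7.17 and 5.82), over the stop codon (4.20 and 4.34) and in the 3′ UTR (3.52 and 4.19). The 3′ UTR pair shared only 27.0% of the shorter peak and had summits 389 bp apart. Replicate 2 had a further 2 peaks, at exon 3 (5.15) and at exons 10 and 11 (3.52). The overlapping SF3A1 sites therefore run from the first to the last exon, and the 2 in the last exon had the lowest folds in both replicates.

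The other U2 genes had 1 pair or none. SNRPB2, which binds a stem loop of U2 RNA, had a pair at the start of its last exon with a fold enrichment of 13.6 in replicate 1 and 6.65 in replicate 2, where the summit held 25 and 8 reads. The plain ratios of reads to background lay closer together (27.5 and 22.7). SNRPA1, its partner protein, had a pair over the start codon (7.75 and 9.07) that also covers an exon of the divergent transcript SNRPA1-DT, and a peak at exon 6 in replicate 1 alone (6.82). SF3B4 had a pair at exons 5 and 6 with nearly equal values (4.95 and 4.98), and a peak at exon 4 in replicate 2 alone (5.94). SF3A2 had a pair at its last exons, with 4.26 in replicate 1 and 7.29 in replicate 2, and a higher peak at exons 6 and 7 in replicate 1 alone (8.99). SF3B3 had 2 peaks in replicate 1 (5.92 and 7.91) and 1 in replicate 2 (9.07) that did not overlap. SF3B2 and SF3B6 had 1 peak each, in replicate 1 alone, with fold enrichments of 8.09 and 10.3, both over the stop codon.

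**Figure D2:**
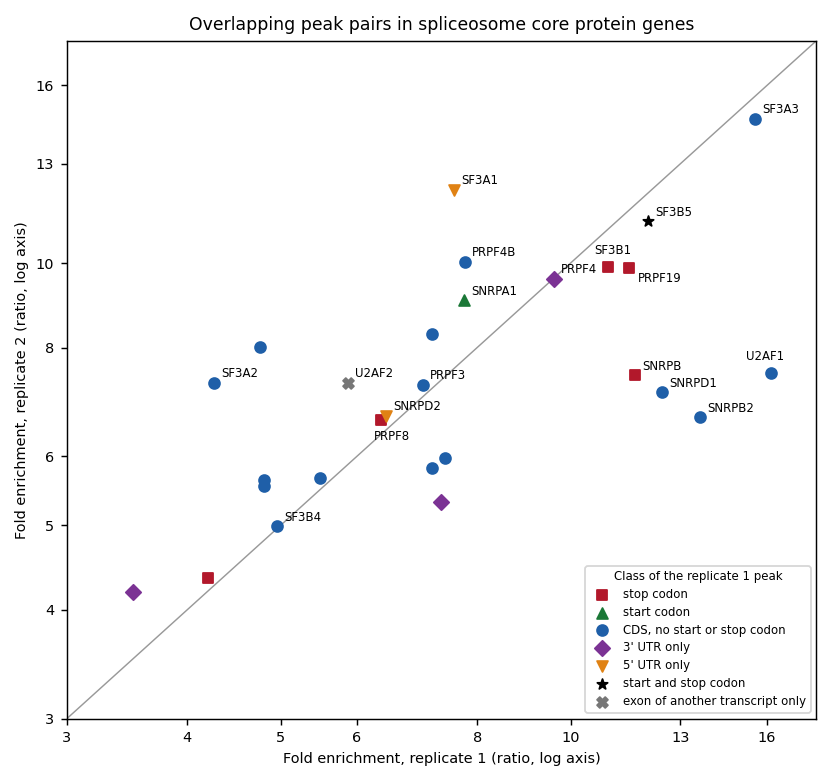
Fold enrichment of 28 of the 29 overlapping peak pairs of the members in replicate 1 (x axis) and replicate 2 (y axis), as ratios on log axes. The mark gives the class of the replicate 1 peak, the line marks equal values, and each gene is named at its highest pair. SF3A3 lies at the top near the line (15.5 and 14.6), whereas U2AF1 (16.2 and 7.48), SNRPB2 (13.6 and 6.65) and SNRPD1 (12.4 and 7.11) lie far below it.

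Peaks lay on 5 of the 8 Sm genes, and on 3 of them in both replicates. Over all protein-coding genes these shares were 44.7% and 31.6%. SNRPB, which codes for SmB and SmB′, had 3 peaks in each replicate. Its strongest pair covered the stop codon (chr20:2461717-2462152 in replicate 1), with a fold enrichment of 11.7 in replicate 1 and 7.43 in replicate 2 (9.54 ± 2.99, SD, n = 2). The exon 5 pair was instead higher in replicate 2 (8.02) than in replicate 1 (4.76). The remaining SNRPB peaks, at exon 2 in replicate 1 (5.73) and at exon 1 in replicate 2 (6.80), did not overlap.

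SNRPD2, whose mRNA is only 515 nt long, had a pair in its 5′ UTR (6.43 and 6.68) and a pair in coding sequence of its last exon (7.41 and 5.97). Its highest peak, over the start codon in exon 2, was in replicate 1 alone (9.36, with 41 reads). SNRPD1 had a pair whose edge reached the repeat printed above, at the start of the last exon. The fold enrichment was 12.4 in replicate 1 and 7.11 in replicate 2 (9.77 ± 3.77, SD, n = 2), with 26 and 13 reads at the summit. Both summits lay in the intron, 97 and 37 nt before that exon. Exons made up 17.78% and 17.35% of the length of these peaks. SNRPD3 had 1 peak in the 3′ UTR, in replicate 1 (6.24), and SNRPE 1 peak at its 5′ end, in replicate 2 (7.69). The SNRPE peak had its summit before the gene start and 15.2% of its length in an exon. SNRPF, SNRPG and SNRPN had no exonic peak in either replicate. SNRPN is an imprinted gene that codes for a close relative of SmB and is best known from the brain.

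The 7 tri-snRNP and B complex genes had 13 peaks in each replicate, and 4 of these genes had peaks in both, beside 31.6% of all protein-coding genes. PRPF8 had 7 peaks in replicate 1, the most of any member, and 6 in replicate 2, as many as SF3A1, on a transcript of 7280 nt with 43 exons. It had 4 overlapping pairs, whose folds spanned 4.80 to 6.36 in replicate 1 and 5.55 to 6.61 in replicate 2. In 2 of these pairs a single peak of replicate 1 over exons 27 to 30 met separate peaks of replicate 2. The pair over the stop codon was the highest (6.36 and 6.61, 6.48 ± 0.177, SD, n = 2). The other 4 peaks of replicate 1 had folds of 3.40 to 5.04, and the other 2 of replicate 2 had folds of 3.34 and 4.54.

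Reads at the PRPF8 summits numbered 32 to 77 in replicate 1 and 32 to 53 in replicate 2, so the gene had deep pileups with low fold enrichments. The recovered local background there was 8.70 to 14.9 reads in replicate 1 and 7.17 to 9.79 in replicate 2, against medians of 2.23 and 1.21 reads over the member peaks. The fold enrichment of these peaks is thus a ratio to a high local level, and a low fold here does not mark few reads.

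**Figure D3:**
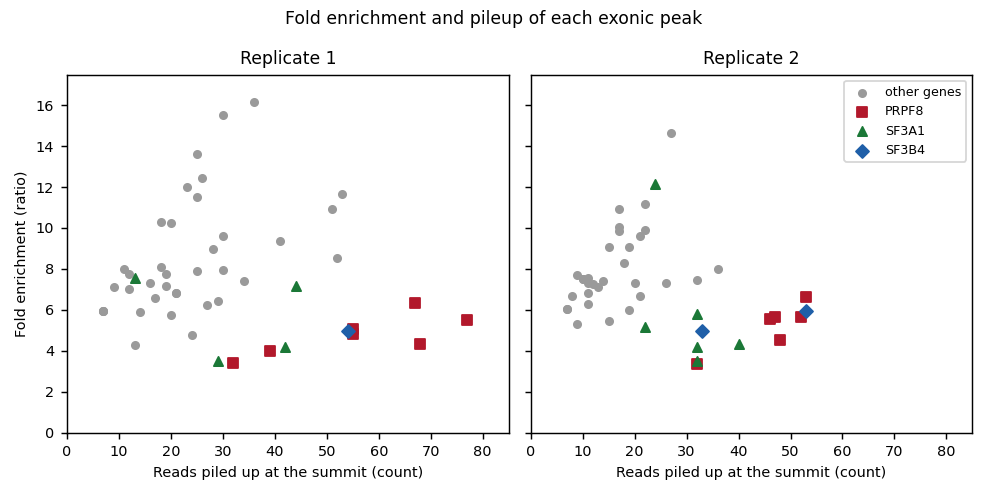
Fold enrichment (y axis, ratio) against the reads piled up at the summit (x axis, count) for each peak of 36 members, with replicate 1 on the left and replicate 2 on the right, and with SF3A1 as triangles and SF3B4 as diamonds. PRPF8 (squares) has 32 to 77 reads in replicate 1 and 32 to 53 in replicate 2 at folds under 7, whereas U2AF1 and SF3A3, with the highest folds in replicate 1, have 36 and 30 reads.

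PRPF4, a U4/U6 protein, had a 3′ UTR pair with almost the same fold in both replicates (9.61 and 9.59), on sequence of which 83.9% and 82.4% of the 31-mers occur once in the genome. The summit 31-mer of replicate 1 occurs 74 times, so the position of that summit is uncertain. A peak over the PRPF4 start codon in replicate 2 alone (7.56) also covers an exon of CDC26. PRPF4B, a kinase bound to the tri-snRNP, had a pair at exon 4 (7.77 and 10.0), where GGAC opens the shared coding stretch. PRPF3, which also binds U4/U6, had a pair at exons 11 and 12 (7.03 and 7.25) and 2 further peaks in replicate 1 (10.2 and 8.01). PRPF31 had 1 peak in replicate 1 alone (6.60), PRPF38A 1 in replicate 2 alone (7.48) and PRPF6, which bridges U5 and U4/U6, 2 in replicate 2 alone (6.28 and 7.29).

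Both subunits of U2AF had a pair, and U2AF1L4, a relative of U2AF1, had no peak. Over all protein-coding genes, 28.0% had an overlapping pair and 44.7% a peak in at least 1 replicate. U2AF1, which reads the AG at the 3′ splice site, had the highest deposited fold of all member peaks, 16.2 in replicate 1 (chr21:43094660-43095049, 36 reads). The overlapping peak of replicate 2 had a fold enrichment of 7.48 with 10 reads (11.8 ± 6.14, SD, n = 2). This was the widest spread of the deposited folds among the 29 pairs, but the plain ratios of reads to background were 27.9 and 21.3. Only 8.06% and 10.1% of the 31-mers of these peaks occur once in the genome. The same holds for 0% of the 31-mers of a further U2AF1 peak at exon 2 in replicate 1 (5.96, with 7 reads). GENCODE annotates a second copy of the gene (ENSG00000275895, minus strand, chr21:6484623-6499248) and classes it as an artifact. Each replicate had 2 peaks on that copy. They matched exon 8 (5.53) and exons 4 and 5 (8.16) of U2AF1 in replicate 1, and exons 4 and 5 (7.32) and exon 1 (8.23) in replicate 2, with 99.7% to 100% of bases equal. Which copy these reads came from cannot be told apart. U2AF2, which binds the polypyrimidine tract, had a pair near its 5′ end in exons outside the canonical transcript (5.88 and 7.29). Its other 2 peaks were in replicate 1 alone, and that over the stop codon had 52 reads (8.53) whereas the other had 21 (6.82).

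Among the genes of U1 proteins and their partners, SNRPC, which helps U1 hold the 5′ splice site, had 2 peaks in replicate 1 alone (5.92 and 7.09). The lower of these had its summit before the gene start and 16.84% of its length in an exon. PRPF39 had 1 peak in replicate 2 alone (10.9) that also covers the snoRNA gene SNORD127. SNRPA, which binds a stem loop of U1 RNA, counted through 57 bp of an exon of another transcript, 5.18% of a peak that also covers exons of ACTMAP (7.95). PRPF40B had no peak.

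The remaining PRPF genes were led by PRPF19, a ubiquitin ligase at the centre of its own spliceosomal complex. It had a pair over its stop codon in the last exon (chr11:60890817-60891345 in replicate 1), with fold enrichments of 11.5 and 9.87 (10.7 ± 1.15, SD, n = 2) and with 25 and 17 reads. A peak that touched its 5′ UTR, with its summit upstream of the gene and 44.86% of its length in an exon, was in replicate 2 alone (7.39). PRPF18, a factor of the second splicing step, had 2 peaks in replicate 2 alone, each with 7 reads (6.05 in both), and PRPF38B had none.

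Across the 29 pairs, the fold was higher in replicate 2 in 17 and in replicate 1 in 12, while the pileup was higher in replicate 1 in 20, higher in replicate 2 in 7 and equal in 2. Spearman's rho across the 29 pairs was 0.608 for the fold, 0.635 for the pileup and 0.894 for the plain ratio of reads to background. These values are given as a description since pairs share libraries and, in part, genes. As a plain ratio of reads to background, 20 pairs were higher in replicate 2 and 9 in replicate 1. The 3 pairs whose order turned were the highest of SF3B1, PRPF19 and PRPF4, so no order of the replicates is read from the deposited fold at these sites. Summits of a pair lay a median of 52 bp apart, and 14 of 29 lay within 50 bp. Of the member peaks, 29 of 53 in replicate 1 (54.7%, interval 41.5 to 67.3) and 29 of 47 in replicate 2 (61.7%, interval 47.4 to 74.2) overlapped a peak of the other list, beside 62.3% and 61.4% of the exonic peaks of all protein-coding genes. The 29 of replicate 1 include the SNRPA peak, whose partner touches no SNRPA exon, and count the wide PRPF8 peak once, whereas the 29 pairs leave out the former and count the latter 2 times. Overlapping peaks had a median of 29 and 22 reads at the summit and the others 21 and 13.5 reads. A gene with a peak in 1 list alone is not shown to lack the site in the other library, since no reads below the calling threshold were analysed here.

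On the canonical transcript, 28 member peaks in each replicate (52.8% and 59.6%) touched coding sequence without covering a start or stop codon, beside 47.9% and 44.2% over all protein-coding genes. Fewer had their summit inside coding sequence, with 16 of 53 (30.2%) in replicate 1 and 18 of 47 (38.3%) in replicate 2, beside 33.2% and 32.6%. Summits in introns of the canonical transcript numbered 21 of 53 and 15 of 47, some of them in exons of other transcripts. Of these, 17 and 15 lay within 150 nt before a 3′ splice site. Both summits of the PRPF4B, SNRPB2 and second SF3B1 pairs, and the SF3B6 summit, lay in introns. Intronic summits were not counted over all protein-coding genes. The stop codon was covered by 10 of 53 peaks in replicate 1 (18.9%, interval 10.6 to 31.4) and 6 of 47 in replicate 2 (12.8%, interval 5.98 to 25.2), beside 14.9% and 13.3% over all protein-coding genes. All 6 in replicate 2 (those of SF3A1, SF3B1, SF3B5, SNRPB, PRPF8 and PRPF19) overlapped a peak of replicate 1. In replicate 1, the SF3B5 peak and 5 of the 9 that cover a stop codon alone overlapped a peak of replicate 2. Those of SF3B2, SF3B6, PRPF3 and U2AF2 did not. The overlap of stop codon peaks over all protein-coding genes was not counted. The start codon was covered by 5 peaks (9.43%) and 6 peaks (12.8%), beside 9.61% and 14.5%. Peaks in the 3′ UTR alone numbered 6 and 3, peaks in the 5′ UTR alone 2 and 4, and 3 and 1 touched only exons of other transcripts. These last classes were not counted over all protein-coding genes, so nothing particular to the members is read from them. The intervals of the replicates overlapped for each of these shares of start and stop codons.

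**Figure D4:**
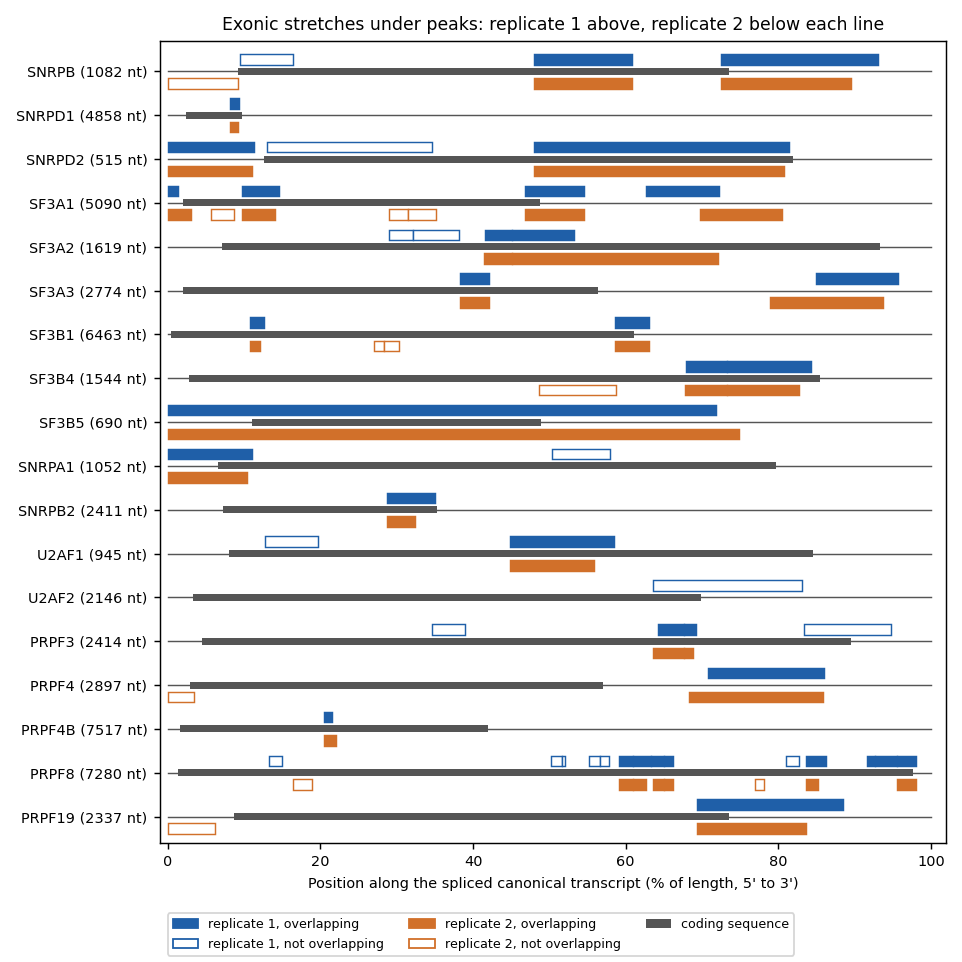
Exonic stretches under peaks on the spliced canonical transcript (x axis, percent of its length from 5′ to 3′) of 18 of the 19 genes with an overlapping pair. Replicate 1 is above and replicate 2 below each line, filled boxes overlap the other replicate, and the thick line is coding sequence. The peaks of SF3B1, SNRPB, PRPF8 and PRPF19 at the end of the coding sequence are filled in both replicates. Those of PRPF3 and U2AF2 there, in replicate 1 alone, are open. The U2AF2 pair is not drawn because it lies on an exon of another transcript.

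Many member peaks crossed a splice site. A 3′ splice site of the canonical transcript lay within 38 of 53 peaks in replicate 1 (71.7%, interval 58.4 to 82.0) and 32 of 47 in replicate 2 (68.1%, interval 53.8 to 79.6), beside 57.8% and 53.2% over all protein-coding genes. A 5′ splice site lay within 22.6% and 21.3% of them, beside 8.64% and 10.1%. The transcripts behind the member peaks had a median of 16 exons and introns with a median of 577 nt, against 12 exons and 1651 nt over all exonic peaks, and the part of gene structure in these shares was not tested. Exons made up a median of 62.4% and 58.5% of the length of a member peak. A peak that crosses a splice site does not show whether its reads came from unspliced RNA, which was not tested.

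Within 50 nt of the summit on either side, GGAC was found in 18 of 53 member peaks in replicate 1 (34.0%, interval 22.7 to 47.4) and 15 of 47 in replicate 2 (31.9%, interval 20.4 to 46.2). The shares over all exonic peaks of protein-coding genes were 29.5% and 32.5%. TGGAC, which is counted within GGAC, was found in 8 windows in each replicate (15.1% and 17.0%), beside 10.1% and 10.0%. The intervals for TGGAC, 7.85 to 27.1 and 8.89 to 30.1, include those values. Only the gene strand was searched, and a match is a description of the sequence and not of methylation.

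The spliceosome genes whose symbols start otherwise were counted in the same way. Of 54 such genes listed, among them SNRNP200, EFTUD2 and the LSM genes, 53 were found as protein-coding symbols. An exonic peak in both replicates was found in 26 (49.1%), beside 54.1% of the members and 31.6% of all protein-coding genes. An overlapping pair lay in 24 of the 53 genes (45.3%), beside 51.4% of the members and 28.0% of all protein-coding genes. No peak was found in 14 of the 53, beside 6 of the 37 members. Their median fold enrichment was 7.06 in replicate 1 and 6.99 in replicate 2.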

How the data were processed

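The authors' methods name Bowtie for alignment and Piranha for peak calling, whereas the submitters' processing notes name fastp, HISAT2 and MACS2, without versions, and the hg38 build, and the deposited files have the narrowPeak layout. Peaks were called per replicate and carry no strand, so each was read on the strand of its gene. The deposited fold enrichment is a ratio of reads plus 1 at the summit to the local background plus 1. The p-value and q-value were deposited on the −log10 scale, and a score column that repeats the q-value was deposited and not used here.

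Peaks were placed by their whole interval on all exons of GENCODE 44, and codons, splice sites and exon numbers were taken from the Ensembl canonical transcript. Pileups are the whole reads that give both fold and p-value under a Poisson model, found within 0.001 for all peaks. Copies were counted as 31-mers on 194 hg38 contigs without alternate ones. Python 3.11.15, pysam 0.24.0 and scipy 1.17.1 were used, and interval and pileup functions were tested on simulated data. No test across genes was run, since there is 1 group and no control. The symbol rule for the members used no measured value, but the rule and the lists were chosen with earlier results of these data known. All members were named except 1, which stays in the counts but is not reported here and is left out of the figures, with fullest detail for the 10 with most pairs, the 10 highest pairs, and the Sm genes, SF3B1, PRPF8, U2AF1 and U2AF2 whatever their values. Alternatives changed the threshold, overlap rule, placing, exons, motif window, overlapping genes, copies and replicates. The labels do not say whether the replicates came from separate cultures.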

Additional observations from a re-analysis of the deposited data

How the results depend on the processing

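Of 50 alternative values for 7 results under 11 settings, 37 moved by less than 1 SD between replicates (for the gene count, by under 1.5 times), and 13 moved further. Those from a single replicate, and the gene count under the stricter overlap rule, could not come out otherwise. The number of members with peaks in both replicates was 15 to 20 of 37. With only peaks whose summit lay inside an exon, the share overlapping the other replicate was 63.8% (main value 58.2%), the share over the stop codon 21.2% (15.8%), the median fold 6.89 (7.17), peaks per kb 0.172 (0.264) and the GGAC share 40.0% (32.9%). Without peaks over exons of another gene, the share over the start codon was 5.51% (11.1%), the median fold 6.90 and peaks per kb 0.238. Without the 1 added to reads and background, a setting chosen after seeing the data, the median ratio was 12.3, higher by construction. Canonical exons alone gave 0.442 peaks per kb, over a shorter exon length. The GGAC share was 34.7% with single-copy summits, 37.1% with summits moved downstream by 146 and 147 nt, and 73.3% over whole peaks, which are longer than the window. The cause of the other moves was not tested. No paired analysis was possible because there is a single group. With 53 and 47 peaks, counting error limits every share, and sites with fewer reads than the caller's threshold were not seen.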

Other observations

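Peaks inside member genes that touched none of their exons were few. SF3B4 had 2 such peaks, in replicate 1 alone, with fold enrichments of 3.75 and 3.37 and with 47 and 44 reads at the summit. SNRPN, which had no exonic peak, held 2 intronic peaks in each replicate, and both overlapped the other list. They lie over processed pseudogenes of ribosomal protein genes on the opposite strand, RPL5P1 (8.70 and 7.18) and RPS27P2 (10.2 and 10.8), so they give no value for SNRPN itself.

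Of 65 pseudogenes whose symbols start like those of the members, 1 (1.54%) had an exonic peak. It was SNRPEP4, a processed pseudogene of SNRPE on chromosome 19, in replicate 1 alone (chr19:5576749-5577089, fold enrichment 7.86).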
